A study of Mus musculus with 2 samples.

Results

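Creatine kinases and myoglobin are the proteins that buffer high-energy phosphate and oxygen in striated muscle. The 7 genes described here were chosen by name: the creatine kinase genes Ckm, Ckb, Ckmt1 and Ckmt2, the myoglobin gene Mb, the creatine transporter gene Slc6a8 and the creatine synthesis gene Gamt. All 7 were among the 23276 gene symbols listed. Values are in FPKM, the fragments of a gene per kilobase of its transcript, scaled to the mapped total of the library. For 6 of the 7 the 2 libraries averaged at least 1 FPKM, and Ckmt1 did not reach that level.

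The study compared heart ventricles of mouse embryos at embryonic stage E12.5 between wild type (WT) and a knockout (KO) in which homologous recombination had disrupted both alleles of Fendrr, which encodes a long non-coding RNA. Embryos of both genotypes came from embryonic stem cells on a C57BL/6 x 129SV background through tetraploid complementation, where a tetraploid host supplies mainly the extraembryonic tissue. Each genotype was 1 RNA library made from 4 pooled ventricles, so that no value has a replicate, no test of genotype was possible, and "higher" and "lower" compare 2 libraries. The libraries were sequenced on separate runs with different base calling, and genotype and run cannot be told apart. The labels could not be checked against Fendrr itself, which had no row, while its former symbol 1110050K14Rik stood at 0 throughout. Low values moved in steps of whole reads, and put the depth at about 13100000 mapped reads in WT and 16400000 in KO. The 95% intervals given below rest on read numbers estimated from that depth and cover counting error only, not differences between embryos or runs. Those of levels and of KO to WT ratios hold for the deposited scaling and do not cover the choice of scaling. Across the 11349 genes that averaged at least 1 FPKM, called measured below, the median log2 ratio of KO to WT, taken as log2((KO + 1)/(WT + 1)) in FPKM, was -0.11.

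As background, creatine kinase moves a phosphate group between ATP and creatine. Mitochondrial forms charge creatine where ATP is made, and cytosolic forms return ATP where myosin and ion pumps use it. The cytosolic enzyme is a dimer of M (muscle, from Ckm) and B (brain, from Ckb) subunits. In the developing heart the B subunit comes first, and M subunits take a growing part as the muscle matures. Creatine itself is made from arginine and glycine by the enzymes encoded by Gatm and Gamt, or is taken up through the transporter encoded by Slc6a8. Myoglobin is the monomeric haem protein that stores oxygen in heart and oxidative skeletal muscle.

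Since the results turn on the relation of Ckm to Ckb, their sequences are shown first where they are most alike, to show what a read of 100 bases has to tell apart. The coding sequences of both genes, 1146 bases each in GENCODE transcripts of the GRCm38 build, were identical at 75.8% of aligned bases. The most similar stretch of 100 bases, at coding positions 550 to 649 counted from the A of the start codon in both genes, differed at 10 bases, shown in capitals.
Ckm: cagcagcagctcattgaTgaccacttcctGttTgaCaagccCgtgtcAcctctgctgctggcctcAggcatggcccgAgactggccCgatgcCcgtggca
Ckb: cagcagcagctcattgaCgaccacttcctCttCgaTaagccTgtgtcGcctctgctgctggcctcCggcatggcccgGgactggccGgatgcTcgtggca
The longest run of identical bases between the aligned coding sequences of Ckm and Ckb was 20. No window of 100 bases of Ckm, Ckmt1, Ckmt2, Mb, Slc6a8 or Gamt occurred letter for letter in an annotated transcript of another gene. For Ckb, 151 of 1373 windows (11.0%) also occurred in Gm12892, which had no row in the table. Reads of 100 bases without errors could therefore be told apart between Ckm and Ckb. Reads from the shared windows of Ckb could not be assigned to Ckb alone, and their number is not known.

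The proximal promoters of both genes are shown because their levels differed in opposite directions. They are the 250 bases before the start site from RefSeq on GRCm38.p6, at chr7:19410844-19411093 on the plus strand for Ckm and chr12:111672339-111672588 on the minus strand for Ckb. Capitals mark TATAAA or TATATA and the E-box CANNTG.
Ckm: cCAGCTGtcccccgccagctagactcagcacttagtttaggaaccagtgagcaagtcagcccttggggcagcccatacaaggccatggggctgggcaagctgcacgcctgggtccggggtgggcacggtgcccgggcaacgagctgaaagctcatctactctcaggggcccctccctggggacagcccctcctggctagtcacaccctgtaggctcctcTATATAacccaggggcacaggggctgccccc
Ckb: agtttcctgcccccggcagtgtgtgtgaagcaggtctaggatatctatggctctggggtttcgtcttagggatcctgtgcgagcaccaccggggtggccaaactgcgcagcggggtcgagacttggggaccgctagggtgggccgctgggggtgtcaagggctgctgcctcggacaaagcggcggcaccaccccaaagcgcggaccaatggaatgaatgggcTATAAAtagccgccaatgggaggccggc
Both promoters hold a TATA sequence close to the start site, TATATA from -31 in Ckm and TATAAA from -28 in Ckb. In windows of 300 bases (250 before and 50 after the start), searched on both strands, TATATA occurred in 5.67% and TATAAA in 13.6% of 32851 RefSeq promoters. The Ckb sequence overlaps a match to the MEF2 consensus, found in 3.19% of promoters, and the Ckm window has no such match. The Ckm window holds 1 E-box, from -249, and the Ckb window none, against 72.3% of promoters with at least 1. Also searched were CCAAT and GATA, found in 37.4% and 57.9% of promoters. The Ckb window holds 2 CCAAT matches and 2 overlapping GATA matches, and the Ckm window none of either. Neither window holds the CArG box of serum response factor, found in 1.63% of promoters. These matches are letters in a window and were not measured as binding sites.

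The cytosolic creatine kinase genes exchanged places between the libraries. In WT, Ckb was the more abundant at 70.9 FPKM (95% counting interval 67.2 to 74.8) and Ckm stood at 45.8 FPKM (42.6 to 49.3). In KO, Ckm was at 84.6 FPKM (80.6 to 88.7) and Ckb at 49.2 FPKM (46.4 to 52.0). Neither gene's counting intervals overlapped between the libraries. Such separation was common, since it allows for counting error alone: of 1191 genes within 2-fold of the level of Ckm, 9.99% were higher in KO with separate intervals and 49.5% lower. Of 1300 genes likewise near the level of Ckb, 10.2% were higher and 48.5% lower. Over all 10334 measured genes with a coding transcript the shares were 6.25% higher and 24.7% lower. These levels rest on at least about 741 WT and 1718 KO reads for Ckm, and on about 1366 and 1190 reads for Ckb.

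**Figure D1:**
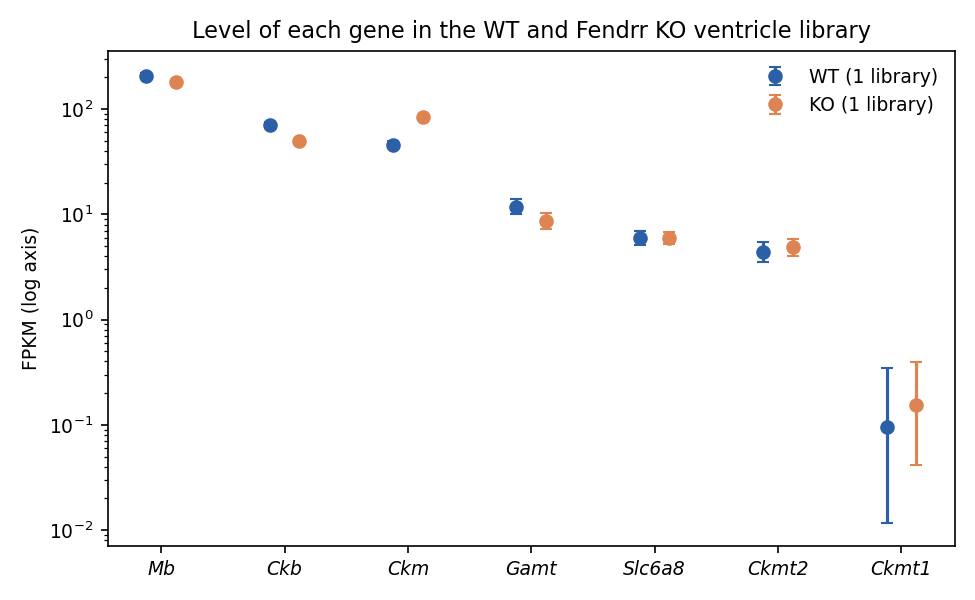
Level of the 7 genes in the WT (blue) and KO (orange) library, in FPKM on a log axis, with 95% intervals that cover counting error only. Ckm lies above Ckb in KO and below it in WT, while the other genes keep their order.

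Ckm, which encodes the muscle subunit, was 1.84 times as high in KO as in WT (95% counting interval 1.69 to 2.01). Its log2 ratio of 0.87 lay 0.98 above the median of all genes. Ckb, which encodes the brain-type subunit, was at 0.693 times its WT level in KO (0.641 to 0.750), a log2 ratio of -0.52. Summed over both genes the level was 116.8 FPKM in WT against 133.7 in KO, a ratio of 1.15. The cytosolic total thus differed by much less than its make-up.

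Ckm made up 39.3% of the cytosolic pair in WT and 63.2% in KO. The ratio of Ckm to Ckb was 0.646 in WT and 1.72 in KO, a 2.66-fold difference (95% counting interval 2.37 to 2.99). This ratio is taken within each library and does not depend on how the libraries are scaled to each other. By reads, with FPKM weighted by the shortest coding transcript of each gene, Ckb also led in WT and Ckm held 35.2% of the pair there and 59.1% in KO. The lead in WT by reads rests on the transcript assumed for Ckm, which has one of 1235 bases and another of 2742: the longest transcripts gave Ckm 54.6% in WT and 76.2% in KO.

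**Figure D2:**
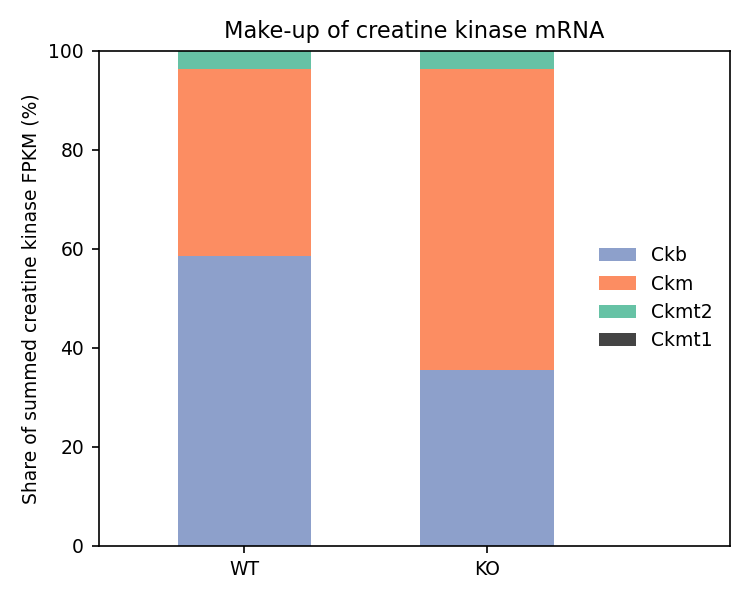
Share of each creatine kinase gene in the summed FPKM of the 4 genes, as stacked bars in percent, 1 bar per library. Ckb takes 58.5% in WT and 35.4% in KO, Ckm 37.8% and 60.9%, and Ckmt1 at about 0.1% is too thin to see.

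No member was called at the 2-fold limit in either direction, where 0.467% of all genes were higher and 0.388% lower. At 1.5-fold, 1 of the 6 measured members, Ckm, was higher, against 1.54% of all genes, and none was lower, against 3.6%. Ckm lay close to the 2-fold limit and passed it with upper quartile scaling (log2 ratio 1.00, with 0.573% of all genes called higher), quantile normalization (1.01, 0.546%) and equal totals without haemoglobin and the 10 most abundant genes (1.01, 0.573%). Of the 11349 genes, 68 including Ckm had a log2 ratio as high or higher (0.599%). Among the 1273 genes whose mean was within 2-fold of that of Ckm, 6 including Ckm did (0.471%). Ckb was less far from the rest: 610 of the 11349 genes were as low or lower, and so were 96 of the 1389 genes of like level (6.91%).

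**Figure D3:**
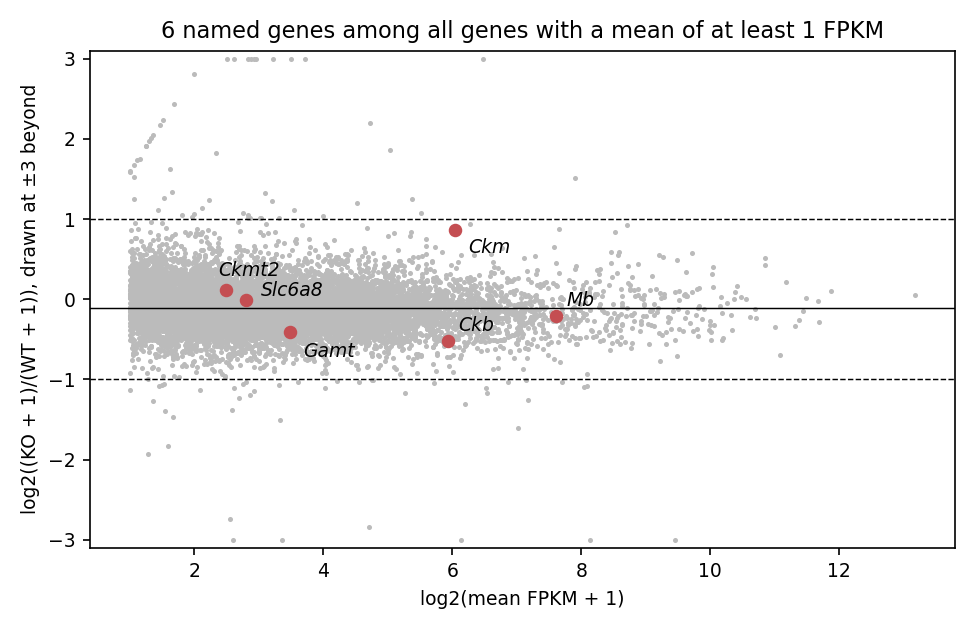
Log2 ratio of KO to WT against log2(mean FPKM + 1) for the 11349 measured genes (grey), with 6 of the named genes in red. The dashed lines mark the 2-fold limits and the solid line the median of -0.11, and Ckm sits just under the upper limit among genes of its level.

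An antisense gene, A930016O22Rik, overlaps Ckm on the opposite strand in GENCODE. Its row was at 0.445 FPKM in WT against 1.63 in KO, also higher in KO. The pseudocount of 1 understates the difference at such low values, so its log2 ratio of 0.86 cannot be set beside that of Ckm. The library kit keeps strand, but whether the counting used it is not given in the sources used here, so reads of the pair could not be told apart. The antisense row was low beside Ckm in both libraries, and its part in the difference of Ckm was not tested.

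The mitochondrial creatine kinases were a minor part in both libraries, and the counting intervals of each overlapped between them. Ckmt2, the sarcomeric form of striated muscle, was at 4.42 FPKM in WT (95% counting interval 3.54 to 5.46) and 4.87 FPKM in KO (4.03 to 5.83), a ratio of 1.10 (0.827 to 1.47). Its values equalled about 86 WT and 119 KO reads before scaling, and the intervals overlapped. Ckmt1, the ubiquitous form of brain, gut and kidney, was at 0.0962 FPKM in WT against 0.153 in KO, which is about 2 reads against 4. Its ratio of 1.59 had a counting interval of 0.228 to 17.6, so that no difference was detectable at this depth. Ckmt2 made up 97.9% of the mitochondrial pair in WT and 97.0% in KO. Both mitochondrial genes together were 3.73% of the summed creatine kinase FPKM in WT and 3.62% in KO. With Ckm higher and Ckmt2 at a similar level, the ratio of Ckm to Ckmt2 was 10.4 in WT and 17.4 in KO, a 1.68-fold difference (95% counting interval 1.25 to 2.24).

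Of the genes of creatine supply, Gamt was lower in KO and Slc6a8 nearly equal. Gamt, which encodes the methyltransferase of the last step of creatine synthesis, was at 11.8 FPKM in WT (95% counting interval 10.0 to 13.9) and 8.70 FPKM in KO (7.32 to 10.3). The ratio was 0.736 (0.580 to 0.932) and the log2 ratio -0.40, with 11.8% of all genes as low or lower. The level intervals of Gamt overlapped, and its ratio interval holds for the deposited scaling only. Under the 5 other scalings its log2 ratio was -0.30 to -0.28. Slc6a8, the creatine transporter, was at 5.995 FPKM in WT against 5.97 in KO, a ratio of 0.996 (0.809 to 1.23). Its log2 ratio of -0.0055 turned to between 0.093 and 0.12 under the 5 other scalings, and its intervals overlapped. Gatm, the enzyme of the first step of synthesis, was at 8.66 FPKM in WT against 9.80 in KO. The ratio of Gatm to Gamt was 0.732 in WT and 1.13 in KO.

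The list of creatine synthesis, methyl donors and transport held 7 measured genes of 8, Gamt and Slc6a8 among them, and none was 2-fold apart. Its median log2 ratio was -0.20, against -0.11 for all genes, with 3 genes above and 4 below the median of all genes. The genes that supply and clear the methyl group used by Gamt were among the lower ones. Ahcy, which hydrolyses the by-product S-adenosylhomocysteine, was at 35.8 FPKM in WT against 24.0 in KO. Mat2a and Mat2b, the catalytic and regulatory subunits that make S-adenosylmethionine, were at 35.3 and 40.3 FPKM in WT and at 30.7 and 32.4 FPKM in KO.

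Mb was the most abundant of the 7 genes in both libraries. It was at 207.9 FPKM in WT (95% counting interval 197.5 to 218.7) and 179.4 FPKM in KO (170.8 to 188.3), a ratio of 0.863 (0.804 to 0.926). Its log2 ratio of -0.21 lay -0.10 from the median of all genes, and 190 of the 406 genes of like level were as low or lower (46.8%). Under the 5 other scalings the log2 ratio of Mb was -0.10 to -0.025. Mb therefore stood where most abundant genes stood, and did not share the difference of Ckm. The ratio of Mb to Ckm was 4.53 in WT and 2.12 in KO, a 0.468-fold difference (95% counting interval 0.419 to 0.523). An overlapping gene on the opposite strand, Apol6, was at 0.0660 FPKM in WT against 0.0525 in KO.

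By level per transcript length, the order in WT was Mb, Ckb, Ckm, Gamt, Slc6a8, Ckmt2 and Ckmt1. The order in KO was the same except that Ckm stood above Ckb. Neighbours in this order had separate counting intervals in both libraries, with the exception of Slc6a8 and Ckmt2, which overlapped in each. From Mb to Ckm the distance was 4.53-fold in WT, and from Ckmt2 to Ckmt1 it was 46.0-fold in WT and 31.8-fold in KO.

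Genes that work beside the creatine kinases did not repeat the pattern of Ckm. The list of adenine nucleotide carriers and pores, which also holds the phosphate carrier gene Slc25a3, had 6 measured genes of 7. All 6 were lower in KO as deposited and under the 5 other scalings. Of all genes, 67% were lower as deposited, 50% after median centring, 52.1% by the trimmed mean, 48.2% with equal totals, 48.7% by the upper quartile and 51.1% after quantile normalization. Their median log2 ratio was -0.33, and none was 2-fold apart. Slc25a4, the ADP/ATP carrier of heart and muscle, was at 2289 FPKM in WT against 1805 in KO. Slc25a3, the phosphate carrier, was at 110.6 and 76.8 FPKM, and Vdac2, an outer membrane pore, at 371.6 and 298.2 FPKM.

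Other phosphotransfer kinases, the adenylate kinases and nucleoside diphosphate kinases, had 10 measured genes of 14 with a median of -0.034 and none 2-fold apart. They went both ways, 6 of the 10 lying above the median of all genes and 4 below. The 3 named for their level or distance were all lower in KO. Ak1, the cytosolic adenylate kinase of muscle, was at 88.3 FPKM in WT against 72.0 in KO. Nme1 was at 75.5 and 54.7 FPKM, and Nme2 at 265.9 and 218.7 FPKM. Nme3, the highest by ratio and named after its values were seen, was at 15.9 and 19.0 FPKM. M-band anchors of creatine kinase and the ATPases it supplies had 7 measured genes of 9, a median of 0.019 and none 2-fold apart. The heavy chain genes Myh7 (2147 FPKM in WT against 2486 in KO) and Myh6 (545.1 and 596.0 FPKM) were slightly higher in KO, and the sarcoplasmic calcium pump gene Atp2a2 (319.3 and 265.0 FPKM) was lower. Myom1, which encodes the M-band protein myomesin and was named after its values were seen, was at 168.9 and 166.4 FPKM.

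**Figure D4:**
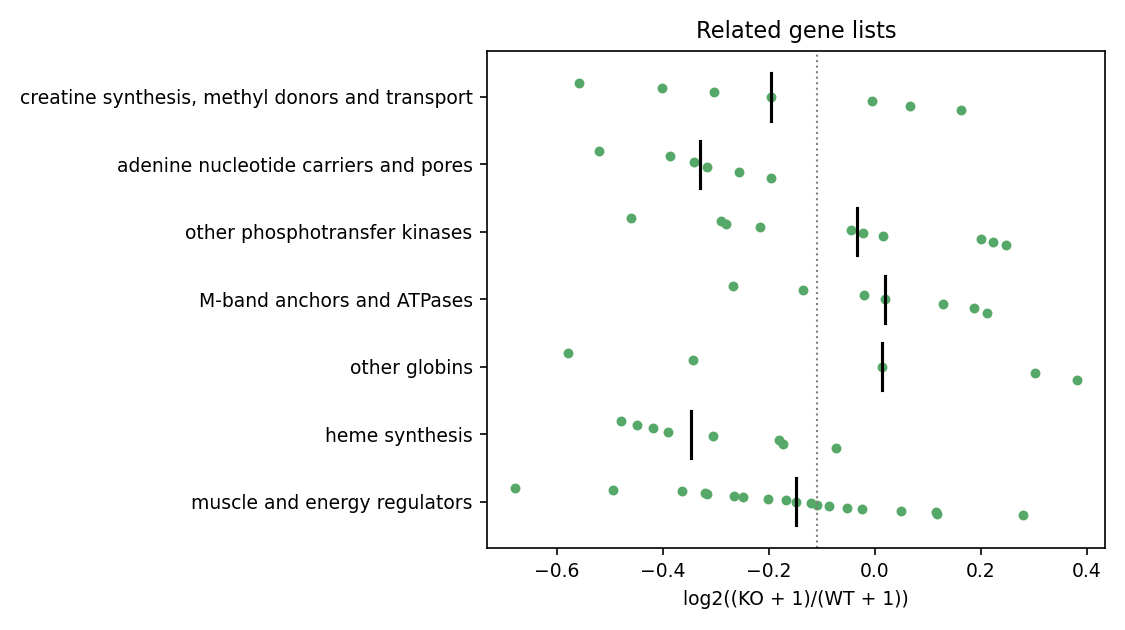
Log2 ratio of KO to WT for each measured gene (green points) of the 7 related lists, with the list's median as a black bar and the median of all genes as a dotted line. All 6 carriers and pores lie to the left of the dotted line. Hba-a1 and Hba-a2 are drawn as 1 point from their sum.

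Of the genes related to Mb, haem synthesis genes were mostly lower in KO and the other globins were mixed. As deposited the 8 haem genes described were all below their WT level, and under each of the 5 other scalings 7 were, against the 67% and 48.2% to 52.1% of all genes given above. Their median log2 ratio was -0.35, and 7 of the 8 lay below the all-gene median. The exception was Cpox, named after its values were seen, at 14.1 FPKM in WT against 13.4 in KO. None was 2-fold apart. Alas2, the first enzyme of the pathway in red cells, was at 18.3 FPKM in WT against 12.8 in KO (log2 ratio -0.48). Urod, which decarboxylates uroporphyrinogen, was at 30.8 and 22.3 FPKM, and Fech, which inserts iron, at 21.4 and 16.1 FPKM. The erythroid markers were also lower in sum, at 34.2 FPKM in WT against 26.7 in KO, with 1 of 4 measured genes above the median of all genes and none of the 6 at 0. Alas2 is in both lists and is the largest part of the erythroid sum, so the 2 lists are not independent here. Slc4a1, the next largest, was at 9.74 FPKM in WT against 9.05 in KO. The part of red cells in the haem values was not tested.

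The other globins had 6 measured genes of 9. Hba-a2 was listed at 0 in KO and at 139.4 FPKM in WT, but its near-identical copy Hba-a1 stood at 1583 and 2122 FPKM. Reads of such copies can be split between them in either way, so they were summed. Together they came to 1722 and 2122 FPKM, and of the 5 values so left, 3 lay above and 2 below the median of all genes and none was 2-fold lower. The non-erythroid globins were low, with Cygb at 0.754 and 0.939 FPKM and Ngb at 0.0473 and 0.0376 FPKM, both named after their values were seen.

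Transcription factors and regulators of muscle and energy genes had 19 measured genes of 21, a median log2 ratio of -0.15 and none 2-fold apart. They went both ways, 7 of the 19 lying above the median of all genes and 12 below, though those named here were all lower in KO. Myocd, the coactivator of serum response factor, was at 10.8 FPKM in WT against 6.36 in KO and was the only gene of this list lower by 1.5-fold, as were 3.6% of all genes. Esrra, an orphan receptor of mitochondrial genes, was at 13.4 and 9.22 FPKM. Mef2a, a muscle gene activator, was at 37.4 and 35.2 FPKM, and Hif1a, the oxygen-sensitive factor, at 127.5 and 114.9 FPKM.

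Markers of the cells that could carry these transcripts were read beside the members. The 15 ventricular cardiomyocyte markers were all present, and summed to 22938 FPKM in WT against 22679 in KO. That sum is led by Myl2 (9103 and 9478 FPKM), and single markers went both ways. Tnni3 (752.9 and 442.6 FPKM) and Myl3 (2671 and 1651 FPKM) were the 2 of 15 lower by 1.5-fold, as were 3.6% of all genes. Tnni1 (760 and 516 FPKM) and Tnnc1 (1209 and 847 FPKM) were lower by less, while Tnnt2 was at 1524 FPKM in WT against 2174 in KO. As deposited, 8 of the 15 markers were lower in KO and 7 higher. Skeletal muscle also uses Ckm and Mb: its 14 markers summed to 57.3 FPKM in WT against 56.9 in KO, most of it Tnni2 (45.7 and 46.3 FPKM). The myogenic factors Myf5, Myf6 and Pax7 were at 0 in both libraries, and Myod1 was at 0 in WT and 0.0328 FPKM in KO. Neural tissue is a known source of Ckb: the 8 neural and nerve markers summed to 4.86 FPKM in WT against 5.32 in KO, with Sox2 at 0 in WT. The 8 mesenchyme markers summed to 470.3 and 573.8 FPKM, 7 of 8 of them above the all-gene median. The 6 smooth muscle markers summed to 742.2 and 660.6 FPKM, most of it Acta2 (466.8 and 408.7 FPKM). Of the 4 measured smooth muscle markers 2 were lower in KO and 2 higher, and Myh11 was at 0.301 and 0.332 FPKM. The 8 endothelial markers summed to 208.2 and 216.5 FPKM, and 7 of these 8 also lay above the all-gene median. The 6 epicardial markers summed to 85.6 and 83.5 FPKM, with 3 above that median and 3 below. The 6 liver and yolk sac markers summed to 0.832 and 21.5 FPKM, most of it Afp (0.110 and 16.6 FPKM). Afp was the 1 marker called 2-fold higher, as were 0.467% of all genes. Ttr (0.438 and 1.79 FPKM), Apoa1 (0 and 1.67 FPKM) and Apob (0.137 and 1.12 FPKM) were also higher in KO. Apoa1 and Apob averaged below 1 FPKM and so could not be called. Alb was listed at 0 in both libraries. The part of these cells in the members' values was not tested. In a pooled tissue, fewer cells of a type and less RNA per cell cannot be told apart.

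The genes nearest to each member in WT and KO level were found as a description over 2 libraries, by the distance in log2(FPKM + 1). Ckm had 1 close neighbour, 1810006K21Rik, at 44.8 FPKM in WT against 83.7 in KO (distance 0.036), and the next, Tmed9, lay at 0.30. Nearest to Ckb were Ddah2 (0.044) and Cnn2 (0.052), and nearest to Mb were Sept7 (0.032) and Tpm4 (0.039). Nearest to Ckmt2 were Cdk6 (0.0049) and Smyd4 (0.0085), nearest to Slc6a8 were Nipal4 (0.014) and Vps45 (0.019), and nearest to Gamt were Dnajb1 (0.017) and Dcp2 (0.022).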

How the data were processed

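Per the labels' protocols, each library started from 500 ng of total RNA of 4 pooled ventricles, from which ribosomal RNA was removed, and strand-specific cDNA was amplified over 15 PCR cycles and read for 100 bases from 1 end. Per the labels, the WT run ended before completion and had manual base calling, possibly with a length filter. The authors deposited 1 FPKM per gene symbol and library, which used Cufflinks 2.0.2 after alignment to mm9 by TopHat2 2.0.6 with Bowtie2 2.0.2, per the submitters' processing notes. The gene models and settings are not given in the sources used here.

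From these, log2((KO + 1)/(WT + 1)) was computed, and genes averaging at least 1 FPKM and lying at least 2-fold apart were counted. The pseudocount of 1 understates differences of low genes. With 1 library per group there is no test and no p-value. In 2087 genes with 1 GENCODE vM21 transcript of at least 1500 bases, FPKM times length was a whole multiple (within 1%) of a fixed step in 61.1% of WT and 59.5% of KO values of 1 to 5 reads, against at most 9.86% and 8.76% at shifted steps. The step gives the depth, provided that values were scaled to all mapped reads. Member reads used the shortest coding transcript of the GENCODE basic set, which makes them low estimates and the intervals wide. GENCODE is on GRCm38, not mm9, so lengths may differ from the authors'. Intervals of a level are exact Poisson, those of a KO to WT ratio exact Clopper-Pearson, and those of a ratio of ratios from the summed inverse reads. The same intervals were computed for all measured genes with such a transcript. PCR copies are not independent molecules.

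The members and lists were chosen with earlier results of these data known. Named genes were the 7 members, up to 4 genes per pathway list (2 of highest mean and 2 of furthest log2 ratio) and the 2 nearest genes per member. Some genes so chosen are not printed, and 1 listed gene was left out of its list and is not reported here. Tried as alternatives were a pseudocount of 0.1 or 5, a minimum mean of 5 FPKM or none, limits of 1.5-fold and 4-fold, 5 scalings (the trimmed mean cut 30% of log ratios and 5% of levels at each end), and length-weighted shares. Promoters of 6 of the 7 members were in the RefSeq table. Data were simulated on the 11349 genes of KO against WT, with counting error only. Of genes raised 3-fold 100% passed the 2-fold limit, and of genes lowered 3-fold 96% did. All of these were drawn from genes averaging 5 FPKM or more, and variation between embryos or runs was not simulated. Python 3.11.15, numpy 2.4.6, pandas 2.3.3, scipy 1.17.1 and matplotlib 3.10.9 were used.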

Additional observations from a re-analysis of the deposited data

How the results depend on the processing

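No paired analysis was possible because WT and KO are 1 library each, and leaving out a library was likewise impossible. Ckm stayed higher and Ckb lower in KO under every pseudocount and scaling run, with log2 ratios of 0.82 to 1.01 for Ckm and of -0.53 to -0.36 for Ckb. Ckm was past the 2-fold limit, as the 1 member so counted in place of 0, with upper quartile scaling (1.00), quantile normalization (1.01) and equal totals (1.01), and at the 1.5-fold limit the count was also 1. Slc6a8 changed sign to 0.093 (trimmed mean), 0.10 (median centring and quantile normalization), 0.11 (upper quartile) and 0.12 (equal totals), which follows from a median of all genes below 0. Gamt stayed lower, from -0.44 to -0.28, and Mb from -0.21 to -0.025. Ckmt1 ranged from 0.016 to 0.67, the latter without a pseudocount, a setting chosen after seeing the data. Of 156 recounts of the pathway lists, 154 gave the same count, nearly all of them 0 against 0, which says little about stability. The exceptions were 1 regulator lower at the 1.5-fold limit, and 0 globins lower with Hba-a1 and Hba-a2 summed, also chosen after seeing the data. Weighted by the shortest transcript, Ckm was 35.2% of the cytosolic pair in WT and 59.1% in KO. Weighted by the longest, chosen after seeing the data, it was 54.6% and 76.2%. The cause of other shifts was not tested. Depth limits Ckmt1, at about 2 and 4 reads, and leaves intervals of Ckmt2 and Slc6a8 that include no difference. The level intervals of Gamt also overlapped between the libraries.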
